A study of Rattus norvegicus with 34 samples.

Results

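The aryl hydrocarbon receptor (AhR) is a ligand-activated transcription factor, and the genes described here are the receptor, its partner, its feedback inhibitors and its best-known targets. They are 7 genes, chosen by symbol: Ahr, Arnt, Ahrr, Cyp1a1, Cyp1a2, Cyp1b1 and Tiparp. The array annotation gives them 9 of the 31099 probe sets in the table, and 14217 genes carry a symbol of their own. Ahr (1369146_a_at and 1369147_at) and Tiparp (1374446_at and 1385407_at) have a pair of probe sets each. Arnt (1369244_at), Ahrr (1380746_at), Cyp1a1 (1370269_at), Cyp1a2 (1387243_at) and Cyp1b1 (1368990_at) have 1 each.

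Transcript levels were measured on Affymetrix rat arrays, 1 array for each of 34 samples, and deposited as GCRMA log2 values. NRK-52E is a rat kidney epithelial line whose genotype label reads Osborne-Mendel; its groups were monuron and 0.1% DMSO at 6, 24 and 72 h, with 3 arrays in each of the 6 groups. Monuron is a phenylurea herbicide. The sample labels name it for the cells, whereas the series' design text names chlorothalonil at 1.1 µM, so the compound and its concentration on the cells are in doubt, and "monuron" below follows the sample labels. The rats were male, Wistar-derived, 7 to 9 weeks old and 190 to 240 g; 4 received monuron in corn oil at 40 mg/kg on day 1 and 400 mg/kg on the next days, and 4 received corn oil alone at 5 ml/kg. Kidney and liver gave 8 arrays each. The labels give 72 h for the rats, while the protocol has them killed 72 h after the last dose, and the labels do not tie an organ's array to an animal. The protocol speaks of separate studies of the cells at each time, so a difference between times cannot be told from one between studies.

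Without ligand, AhR sits in the cytoplasm with Hsp90 and the co-chaperone p23 (Ptges3). A ligand sends it to the nucleus, where it pairs with Arnt and binds xenobiotic response elements, which share a short core of bases. Cyp1a1, Cyp1a2 and Cyp1b1 encode P450 enzymes that oxidise polycyclic aromatics and other flat molecules, and Cyp1a1 induction is the standard readout of the receptor. Ahrr, the AhR repressor, and Tiparp, a mono-ADP-ribosyltransferase, are targets that in turn restrain the receptor. Cyp1a2 is a major P450 of the liver, strongest in hepatocytes around the central vein, whereas Cyp1b1 is mainly a P450 of tissues outside the liver.

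The core GCGTG was searched on both strands of the 250 bases before each start site, in RefSeq promoters of build GRCr8. A promoter was found for 6 of the 7 genes, all but Cyp1a1. The core occurred in 8666 of 33465 promoters of that length (25.9%), and in 4 of the 6: 3 times in Ahrr, 2 times in Cyp1b1 and 1 time each in Arnt and Tiparp. The longer form TNGCGTG, which contains the core, occurred in 4.1% of all promoters and 1 time each in Ahrr and Cyp1b1. Printed here are 3 of them, 5′ to 3′, with the core, or its complement CACGC, in capitals: those of the 2 genes with a promoter here that passed a treatment test, and that of Ahrr, which holds most cores and was low throughout. A match describes letters and does not show binding.
Tiparp, chr2:152063519-152063768, + strand: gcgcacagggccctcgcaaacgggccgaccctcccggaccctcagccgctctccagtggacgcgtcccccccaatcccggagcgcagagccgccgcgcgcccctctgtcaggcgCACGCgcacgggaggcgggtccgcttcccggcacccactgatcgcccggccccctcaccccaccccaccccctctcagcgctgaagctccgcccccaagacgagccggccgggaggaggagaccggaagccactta
Cyp1b1, chr6:21094315-21094564, + strand: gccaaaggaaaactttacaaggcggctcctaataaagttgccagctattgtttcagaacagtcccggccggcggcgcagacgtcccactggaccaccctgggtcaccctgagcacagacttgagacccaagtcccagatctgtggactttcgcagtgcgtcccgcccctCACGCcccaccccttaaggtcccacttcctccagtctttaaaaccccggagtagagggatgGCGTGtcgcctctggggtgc
Ahrr, chr1:30821969-30822218, + strand: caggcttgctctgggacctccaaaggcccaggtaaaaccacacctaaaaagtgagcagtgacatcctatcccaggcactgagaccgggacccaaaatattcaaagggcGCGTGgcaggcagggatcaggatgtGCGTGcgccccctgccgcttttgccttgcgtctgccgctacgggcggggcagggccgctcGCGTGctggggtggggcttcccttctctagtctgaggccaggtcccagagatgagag
In Tiparp the core lies on the opposite strand at -136 to -132 from the start site. In Cyp1b1 the cores lie at -81 to -77 (opposite strand) and at -20 to -16. In Ahrr they lie at -142 to -138, -117 to -113 and -57 to -53. These promoters are rich in G and C, at 74.8%, 59.2% and 62.0% against a median of 51.2% over all promoters.

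The level of a gene is given below against the median of its own array, which lay between 3.96 and 4.18 on the cell arrays, 3.89 and 3.94 in kidney and 3.66 and 3.78 in liver. Values under that median are dim, and a difference between dim values says little about transcript amounts. Kidney arrays held all 11 proximal tubule markers, and liver arrays all 11 hepatocyte markers, above the median. NRK-52E did not: 9 or 10 of the 11 proximal tubule markers lay below the median on every array of a group, and Ggt1 alone was above it on every array of 5 of the 6 groups. Of 8 epithelial markers, 5 or 6 (among them Cdh1 and Epcam) were below the median on all arrays of each group, while Krt8 was bright, with group means from 11.67 to 14.01. The DMSO arrays at 72 h were the least alike of any group, with replicates 3 and 1 at a mean Pearson r of 0.990 and 0.991 with the rest of their group, and the 72 h differences of the members were also computed without both arrays of replicate 3. Differences were tested with limma over all genes that passed a brightness filter (adjusted p by Benjamini-Hochberg, threshold 0.05).

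**Figure D1:**
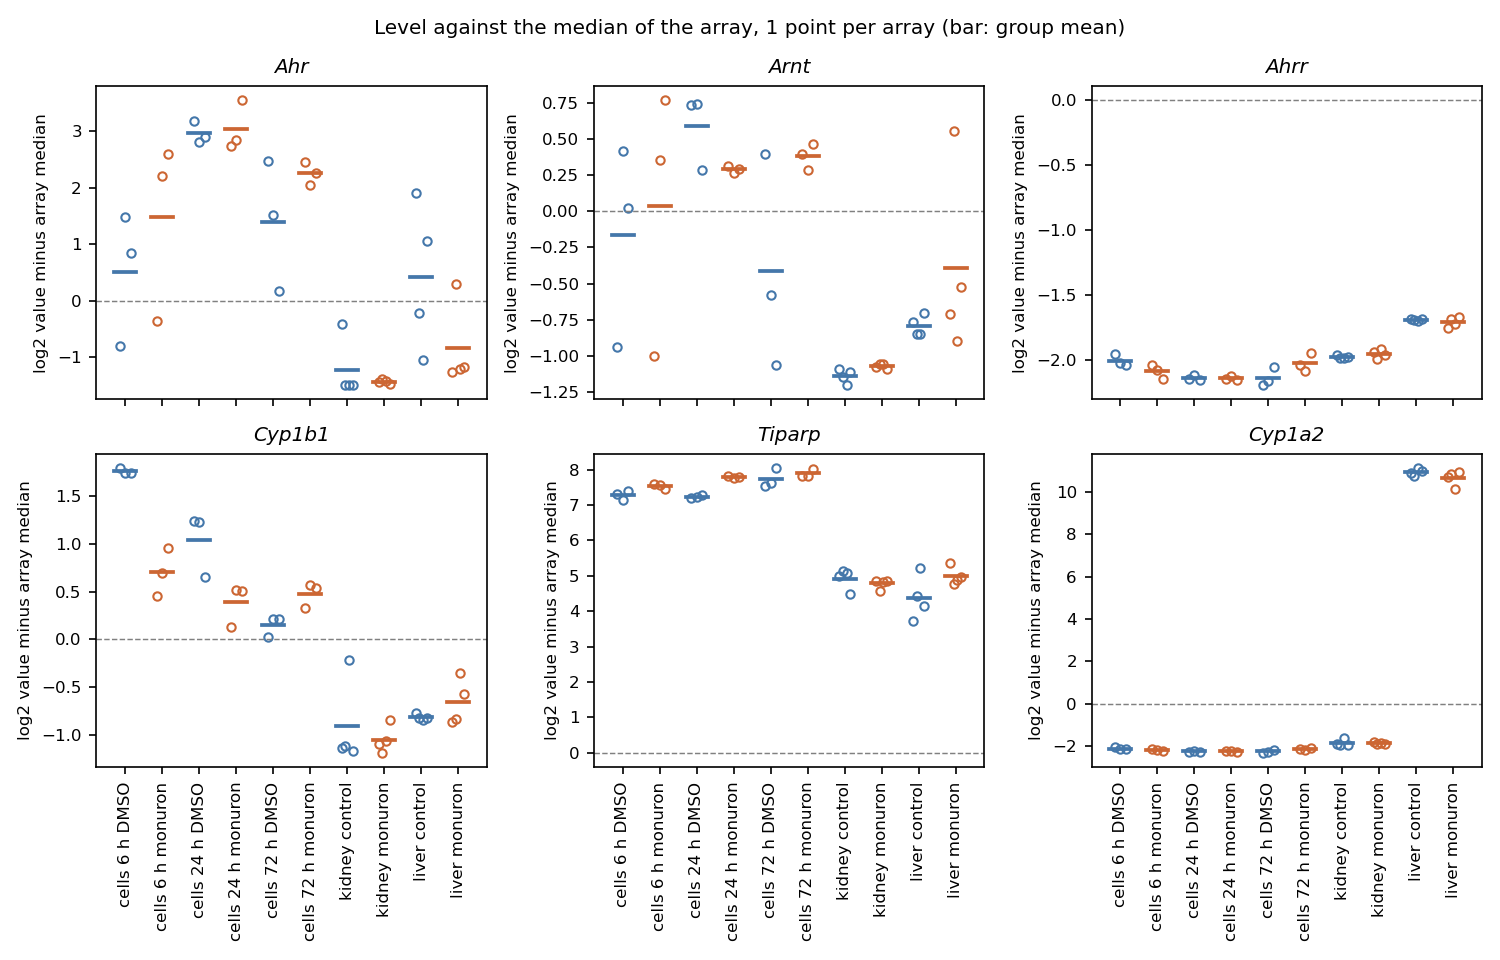
Levels of 6 of the genes in the 10 groups, as log2 value minus the median of the same array (y axis, own scale per panel); each circle is 1 array, each bar a group mean, blue for vehicle and orange for monuron, and the dashed line is the array median. Tiparp was bright on all 34 arrays, Cyp1a2 only in liver and Ahrr on none. Ahr and Arnt varied widely between arrays of the 6 h and DMSO 72 h groups, as did Ahr in control liver and Arnt in monuron liver.

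The receptor itself was above the array median on 16 of 18 cell arrays and on 3 of 16 organ arrays, all 3 of them liver. Ahr (1369146_a_at) read 3.16, 5.51 and 4.89 in DMSO cells at 6 h and 3.68, 6.27 and 6.71 in monuron cells. At 24 h the DMSO values were 7.32, 6.92 and 7.05 and the monuron values 6.89, 6.97 and 7.68. At 72 h they were 6.65, 5.66 and 4.24 in DMSO and 6.50, 6.12 and 6.25 in monuron. The groups overlapped at each time, and the differences of 1.04, 0.08 and 0.78 on the log2 scale had adjusted p-values of 0.405, 0.956 and 0.352. The 95% intervals were -0.45 to 2.52, -1.41 to 1.57 and -0.71 to 2.26, so a change of 2-fold in receptor transcript could not be told from none. In kidney 7 of 8 arrays lay between 2.43 and 2.56, and in liver the control values were 5.60, 3.49, 2.65 and 4.73 against 2.53, 3.97, 2.56 and 2.50 with monuron. Ahr therefore did not pass the brightness filter in either organ and was not tested there. The second Ahr probe set, 1369147_at, stayed between 2.17 and 2.32 on all 34 arrays, below every median, and carried no reading of the gene.

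Arnt, the partner that AhR needs to bind DNA, lay near the median in the cells. Its values at 6 h were 3.02, 4.44 and 4.06 in DMSO and 3.04, 4.42 and 4.87 in monuron cells. They were 4.87, 4.85 and 4.44 against 4.47, 4.38 and 4.43 at 24 h, and 4.57, 3.57 and 3.00 against 4.44, 4.36 and 4.46 at 72 h. No difference passed the test, with adjusted p-values of 0.769, 0.694 and 0.173, though without DMSO replicate 1 that of 72 h was 1.14 (adjusted p 0.0366). Ahr and Arnt were both lowest in replicate 1 of each treatment at 6 h and in replicate 3 of DMSO at 72 h. Over the 18 cell arrays their levels had a Pearson r of 0.86 and a Spearman rho of 0.54, on arrays that share treatment, time and extract. Those 6 h arrays also had a wider gap between the 3′ and 5′ beta-actin control probe sets, a sign of RNA quality: 1.52 and 1.42 against 1.07 to 1.12 on the other 4. Over the 18 arrays that gap had an r of -0.41 with Ahr and -0.54 with Arnt, and its part in the levels was not tested. Arnt was dim in both organs except on 1 array, liver monuron replicate 2, at 4.24.

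Ahrr, the repressor, was not measurable: its probe set read between 1.93 and 2.05 on all 34 arrays, at least 1.67 below the array median. Whether it moved with Cyp1a1 cannot be read from these arrays.

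Cyp1a1, the main inducible target, had the largest treatment difference of the members in the cells, a rise at 24 h. Its falls at 6 and 72 h were not called with values under the array median set to it. In monuron cells it read 2.97, 2.95 and 3.12 at 6 h, 6.43, 6.53 and 6.47 at 24 h, and 2.62, 2.60 and 2.64 at 72 h. In DMSO cells it read 5.55, 3.57 and 4.89 at 6 h, 3.79, 3.39 and 2.98 at 24 h, and 2.90, 4.51 and 3.94 at 72 h. The monuron arrays were thus above their median at 24 h alone, and no monuron value fell inside the DMSO range at any time. At 24 h only Cyp1a1 of the 7 genes stood above the median with treatment and below it, on all 3 arrays, without. DMSO cells were above the median on 2 of 3 arrays at 6 h and on 1 of 3 at 72 h.

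At 24 h Cyp1a1 was 3.09 higher with monuron (95% interval 2.21 to 3.96, adjusted p 3.74e-04). All 3 DMSO values lay below the median, and with values under the median set to it, the difference was 2.34, or 5.06-fold (adjusted p 8.49e-05), the tenth largest increase of 9042 genes. At 6 h it fell by 1.66 (SE 0.41, adjusted p 0.0266), but with the same limit it fell by 0.75 with an adjusted p of 0.0808, since all monuron values and 1 DMSO value lay below the median. The 6 h call also went, with adjusted p from 0.0638 to 0.151, without any 1 of the 3 monuron arrays or without DMSO replicate 1 or 3. At 72 h it fell by 1.16 (SE 0.41, adjusted p 0.0222). With the limit it fell by 0.21 (adjusted p 0.480), without DMSO replicate 2 it fell by 0.80 (adjusted p 0.125), and without both 72 h arrays of replicate 3 it fell by 1.10 (adjusted p 0.0731). The rise at 24 h was called whichever array was left out. Beside it, the mean of the 10 fibroblast and stellate cell markers lay 2.98 to 3.09 above the median with monuron and 2.67 to 2.72 in DMSO at 24 h, with Des called higher of 6 tested, and its part in the rise was not tested. The difference moved by -4.25 from 24 to 72 h (SE 0.58, adjusted p 9.16e-05). With the limit it moved by -2.55, or 5.87-fold (adjusted p 1.00e-04).

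**Figure D2:**
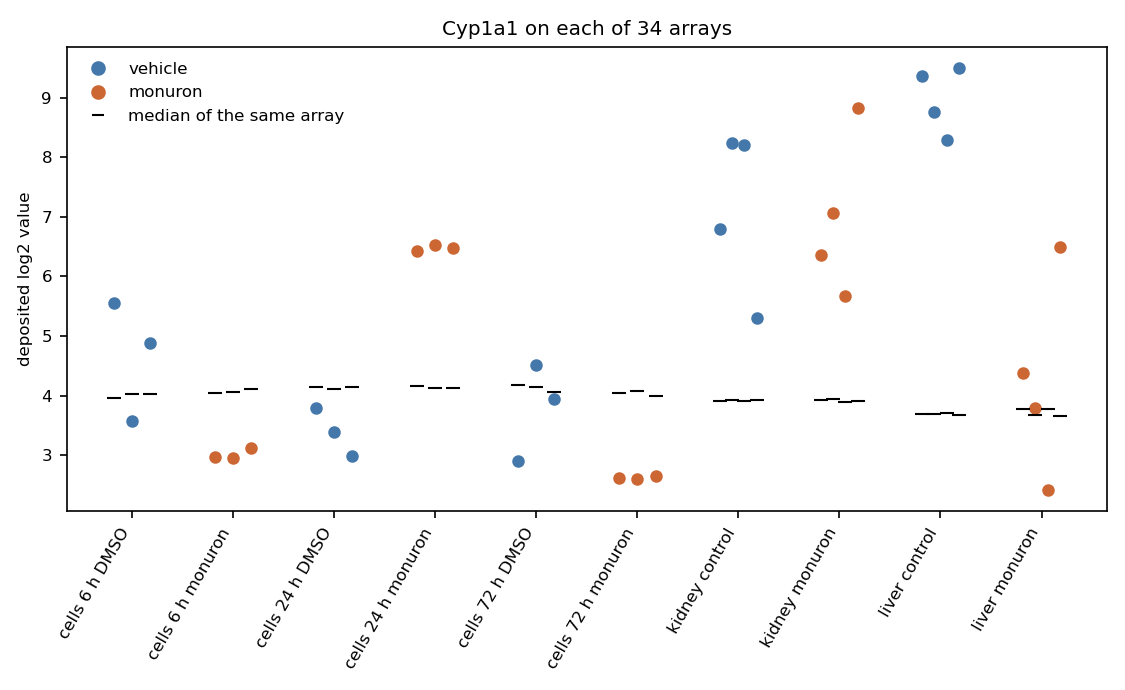
Deposited log2 value of Cyp1a1 (y axis) on each of the 34 arrays, by group (x axis), blue for vehicle and orange for monuron, with the median of the same array as a black dash. The 3 monuron arrays at 24 h sit between 6.43 and 6.53, those at 6 and 72 h sit below their medians, and the 4 control livers, between 8.29 and 9.50, lie above all 4 monuron livers.

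Cyp1b1 went down in the same cells, already at 6 h. At 6 h it read 5.75, 5.76 and 5.78 in DMSO and 4.49, 4.76 and 5.07 in monuron cells, a fall by 0.99 (95% interval -1.38 to -0.60, adjusted p 0.0072) or 1.99-fold. At 24 h it read 5.38, 5.33 and 4.80 against 4.29, 4.64 and 4.64, a fall by 0.65 (SE 0.19, adjusted p 0.0318). The groups did not overlap at either time. At 72 h DMSO read 4.20, 4.36 and 4.28 and monuron 4.37, 4.65 and 4.54, a difference of 0.24 with an adjusted p of 0.279. All 18 values were above the array median, so the limit changed none of these differences. The 6 h fall was called whichever array was left out, whereas the 24 h call went, with adjusted p up to 0.138, without any 1 of monuron replicates 1, 2 and 3 or DMSO replicates 1 and 2. The difference moved up by 0.89 between 24 and 72 h (SE 0.26, adjusted p 0.0149), with monuron values of 4.29 to 4.64 and 4.37 to 4.65 at these times and DMSO values that fell. The gene was dim in kidney and liver and was not tested there.

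Tiparp, the ADP-ribosyltransferase that restrains AhR, was the brightest of the 7 in the cells, above at least 92.2% of the probe sets of each cell array on 1374446_at. At 6 h it read 11.27, 11.15 and 11.44 in DMSO and 11.62, 11.63 and 11.56 in monuron cells. The groups did not overlap, and the difference of 0.32 (SE 0.09) missed the threshold with an adjusted p of 0.0526. Same-numbered arrays of the 2 treatments deviated together only in part at 6 h (r 0.197 to 0.491, unlike numbers up to 0.301). With the replicate number as a block the adjusted p was 0.0328. It was 0.0056 without both 72 h arrays of replicate 3, which share the fit's estimate of spread. At 24 h Tiparp read 11.34, 11.33 and 11.44 against 11.97, 11.87 and 11.91, a rise of 0.55 (95% interval 0.35 to 0.74, adjusted p 0.0020) or 1.46-fold. The second probe set, 1385407_at, read 11.12, 10.89 and 11.33 against 11.83, 11.99 and 12.22, a rise of 0.90 (SE 0.19, adjusted p 0.0086, from a fit of all probe sets, as for every value of that probe set). At 72 h, 1374446_at read 11.72, 11.77 and 12.11 in DMSO and 11.87, 11.90 and 12.01 in monuron cells, and the groups overlapped (difference 0.06, adjusted p 0.587). The treatment difference shrank by 0.49 from 24 to 72 h on the first probe set and by 1.01 on the second, with adjusted p-values of 0.0086 and 0.0098. With arrays centred on their medians the first of these was 0.39 in size and missed the threshold (-0.39, adjusted p 0.0544). On the first probe set the DMSO cells rose over that time while the monuron cells stayed at 11.87 to 12.01. On the second the monuron mean went from 12.01 to 11.46 and the DMSO mean from 11.11 to 11.57.

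Cyp1a2 was not measurable in the cells, where all 18 arrays were more than 2 below the median. At 24 h the rise of Cyp1a1 thus had no counterpart that could be read in its neighbour: Cyp1a2 and Cyp1a1 lie side by side on the chromosome, with no gene between them in the RefSeq annotation.

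Of the 7 genes, 5 were bright enough to be tested in the cells. Cyp1a1 was above the median on 6 of 18 cell arrays, 3 of them monuron cells at 24 h, where it was high. With only the 6 h or only the 72 h arrays in the fit it did not pass the filter. Its calls at 6 and 72 h thus enter the counts below through arrays of other times. At 6 h 2 of the 5 were called, both lower, where 6.31% of all 9042 genes were called in either direction. At 24 h 3 of 5 were called (2 higher, 1 lower) against 13.6%, and at 72 h 1 of 5 against 61.6%, a share so large that a single call at that time says little about the gene. Without both replicate 3 arrays of 72 h the differences at that time, beside that of Cyp1a1 given above, were 0.15 for Ahr, 0.33 for Arnt, 0.23 for Cyp1b1 and 0.14 for Tiparp, with adjusted p-values from 0.153 to 0.875. The change of the difference was called for 1 of 5 from 6 to 24 h (1.22% of all genes) and for 3 of 5 from 24 to 72 h (37.9%). These are counts over 5 genes and no test of the group.

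**Figure D3:**
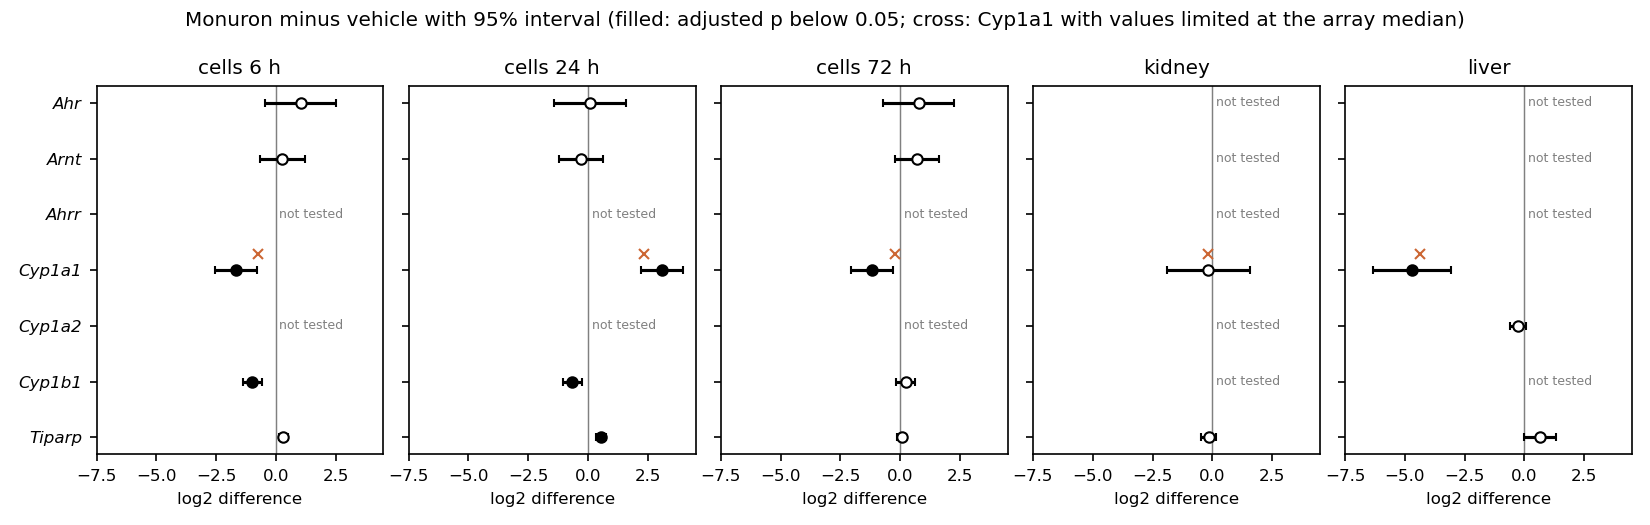
Log2 difference, monuron minus vehicle (x axis), for each gene (y axis) in the 5 treatment comparisons, with 95% intervals; filled points passed the test, open points did not, and the orange cross gives Cyp1a1 with values limited at the array median. The crosses at 6 and 72 h lie at -0.75 and -0.21, nearer to 0 than the points at -1.66 and -1.16, and that at 24 h lies at 2.34.

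The vehicle cells also differed between the times, which the protocol describes as separate studies, so time and study cannot be told apart here. From 6 to 24 h in DMSO, Ahr rose by 2.58 (SE 0.70, adjusted p 0.0055), from values of 3.16 to 5.51 to values of 6.92 to 7.32. Cyp1a1 fell by 1.28 (adjusted p 0.0151) and Cyp1b1 fell by 0.59 (adjusted p 0.0133), so 3 of 5 genes were called where 53.1% of all genes were. With the limit Cyp1a1 fell by 0.69 (adjusted p 0.0287). The Cyp1a1 call went without DMSO 6 h replicate 1 or 3 or DMSO 24 h replicate 3, and that of Cyp1b1 without the last of these. From 24 to 72 h Cyp1b1 fell further by 0.89 (SE 0.19, adjusted p 0.0021) and Tiparp rose by 0.50 (SE 0.09, adjusted p 9.57e-04), 2 of 5 genes against 27.9% of all. Both were called whichever array was left out. On the second Tiparp probe set the rise was 0.45 with an adjusted p of 0.0900. These changes share their DMSO arrays with the treatment differences at the same times.

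The genes whose levels ran closest to the members over the 18 cell arrays, as values of likeness alone, were these. For Cyp1a1 they were C1h19orf33, Anapc13 and Stard10 (Pearson r 0.85, 0.79 and 0.76). For Cyp1b1 they were Cox6a1, Akr1b1 and Tpd52l2 (0.90, 0.90 and 0.89), and for Tiparp Pcnx4, Jdp2 and Otub2 (0.93, 0.92 and 0.92). Cyp1b1 and Tiparp ran against each other, with an r of -0.73 and a rho of -0.68, while Cyp1a1 followed neither (r 0.10 and 0.09).

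In liver Cyp1a1 was far lower in the monuron rats. The control livers read 9.37, 8.75, 8.29 and 9.50, among the brighter probe sets of their arrays, and the monuron livers 4.38, 3.79, 2.42 and 6.49. The groups did not overlap, and the monuron rats varied more, from below the median to 2.83 above it. The difference was a fall by 4.71 (95% interval -6.34 to -3.07, adjusted p 0.0196), the lowest of 9361 genes. With the limit it fell by 4.37, or 20.7-fold (adjusted p 0.0107). The difference stayed between -5.45 and -4.09 with any 1 array left out, but its adjusted p rose to between 0.0576 and 0.0728 without monuron replicate 1 or control replicate 1, 2 or 4. Bulk tissue cannot separate fewer cells that carry a transcript from less transcript per cell.

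Cyp1a2, the other Cyp1a enzyme of liver, was not called. It read 14.60, 14.47, 14.84 and 14.68 in control and 14.51, 14.54, 13.93 and 14.61 in monuron livers, above at least 99.1% of the probe sets of each array. The groups overlapped, and the difference of -0.25 had a 95% interval of -0.59 to 0.08 and an adjusted p of 0.322. The lowest Cyp1a1 and the lowest Cyp1a2 came from the same array, monuron replicate 3, where the Cyp1a1 probe set read 2.42 and that of Cyp1a2 13.93. Over the 8 liver arrays the levels of both had a Pearson r of 0.72 and a Spearman rho of 0.62, on arrays that share treatment and tissue. Tiparp read 7.40, 8.12, 8.94 and 7.81 in control and 9.14, 8.46, 8.65 and 8.64 in monuron livers, overlapping groups with a difference of 0.65 (interval -0.02 to 1.33, adjusted p 0.222). Without control replicate 3 it was 0.94 with an adjusted p of 0.0455, while the second probe set gave 0.12 (adjusted p 0.886). So 1 of 3 members tested was called in liver, where 3.12% of all genes were.

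On the liver arrays the mean of the 11 hepatocyte markers lay 11.36 to 11.46 above the median with monuron and 11.30 to 11.49 in controls. Limma called 0 of these 11 (3 at an unadjusted p below 0.05). The part of cell make-up in the Cyp1a1 difference was not tested. Of 9 markers of the hepatocytes around the central vein, where Cyp1 enzymes are strongest, 7 were above the median on all arrays of both groups and Lgr5 and Slc1a2 were below it on all. Their mean lay 5.50 to 5.91 above the median with monuron and 5.84 to 5.92 in controls. Of the 7 tested, 1 was called lower, Aldh1a1, and by limma 4 had an unadjusted p below 0.05. The median difference of the 7 was -0.26 beside -0.07 over all genes. Of other cells' markers, Vim (1 of 8 fibroblast and stellate markers tested) and Lyve1 (1 of 7 endothelial markers) were called higher, as were Aqp1 and Slc22a8 (2 of 4 proximal tubule markers tested), and limma called 0 of 9 macrophage and leukocyte markers (3 at an unadjusted p below 0.05). The 3′ to 5′ gap of beta-actin was 3.10 to 3.89 with monuron and 3.40 to 4.77 in controls, and its part in the Cyp1a1 difference was not tested. The genes closest to Cyp1a1 over the 8 liver arrays were Ltbr, Desi2 and Bcl7b (r 0.99, 0.98 and 0.98). All 3 follow from a ranking over 2 groups that differ strongly in Cyp1a1.

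In kidney neither testable member was called, against 10.2% of all genes (limma). Cyp1a1 read 6.80, 8.24, 8.21 and 5.31 in controls and 6.37, 7.06, 5.66 and 8.83 with monuron, a wide scatter in both groups. The difference of -0.16 had a 95% interval of -1.89 to 1.57 (adjusted p 0.917), which holds changes of 2-fold in either direction. Tiparp read 8.89, 9.05, 9.01 and 8.41 against 8.79, 8.52, 8.72 and 8.76 (difference -0.14, interval -0.46 to 0.17, adjusted p 0.541), and its second probe set had a difference of 0.55 (adjusted p 0.235). Neither had an unadjusted p below 0.05 (0.842 and 0.341).

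The liver and kidney differences of Cyp1a1 were compared directly, in a joint fit of 16 arrays. The liver difference was lower by 4.55 (-4.55, SE 1.15, adjusted p 0.0453), the lowest of 10114 genes, and 1 of 3 members was called against 2.68% of all genes. This call was close to the threshold and was not kept with every probe set fitted (adjusted p 0.0523), no brightness filter (0.0823), the mean of a gene's probe sets (0.0566), eBayes without trend (0.0636) or the replicate number as a block (0.0609), nor without any of 12 single arrays (up to 0.0931). The design text counts 8 rats in all, so both organs may come from the same animals, which the fit could not use. Among controls, Cyp1a1 was 2.06 higher in liver than in kidney relative to the array median (adjusted p 0.0303) and Cyp1a2 was higher by at least 10.96, its value with the kidney arrays, all below the median, set to it (adjusted p 2.14e-20). That is 2 of 3 members against 76.6% of all genes. The Cyp1a1 call went without kidney control replicate 1 or 4 or liver control replicate 1 or 4.

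By level, Cyp1a1 stood highest in control liver (5.28 above the median, SD 0.58, n = 4), followed by control and monuron kidney (3.22, SD 1.40, and 3.07, SD 1.36) and monuron cells at 24 h (2.34, SD 0.07, n = 3). The range of control liver did not touch that of control kidney, though 1 monuron kidney, at 4.92, lay inside it, whereas the next 3 overlapped their neighbours in that order. Tiparp stood 7.24 to 7.89 above the median in the 6 cell groups and 4.38 to 5.00 in the 4 organ groups. Cyp1b1 was highest in DMSO cells at 6 h (1.76, SD 0.03) and below the median, as a group mean, in all 4 organ groups.

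Other targets of the receptor gave a mixed picture in the cells. The list held 28 genes of the AhR battery and other targets, 21 of them on the array and 11 tested. At 6 h limma called 0 (3 at an unadjusted p below 0.05), and the list's median difference was -0.22, beside -0.02 over all genes. At 24 h 3 of 11 rose and none fell, where 13.6% of all genes were called, with a median of 0.40 beside 0.00. They were Gsta1, a glutathione transferase subunit (0.80, SE 0.17, adjusted p 0.0083), Tgfb1, a growth factor that AhR also affects (0.78, adjusted p 0.0464), and Nfe2l2, which encodes NRF2, a main regulator of antioxidant genes (0.34, SE 0.06, adjusted p 0.0025). Nqo1, the quinone reductase of the classical battery, was bright but did not pass (12.03 to 12.12 in DMSO, 12.24 to 12.36 with monuron, adjusted p 0.422). Over 27 other settings 2 to 7 of the list rose at 24 h and 0 fell, the 7 with only the arrays of the times compared in the fit, and 5 rose without DMSO 72 h replicate 1. Tgfb1 was not called under 14 of the 27 (adjusted p up to 0.167), while Gsta1 and Nfe2l2 were called under all 27. At 72 h Gsta1 was higher again (1.02, adjusted p 1.10e-04), with the cell cycle inhibitor Cdkn1a (0.57, adjusted p 0.0158) and the amino acid carrier Slc7a5 (2.76, adjusted p 0.0010), while Cdkn1b fell by 0.63 (adjusted p 4.13e-06). Slc7a5 read 6.12 to 9.90 in DMSO and 10.26 to 10.30 with monuron; its difference was 3.96 without DMSO replicate 3 and 2.07 without DMSO replicate 1, and was called in both cases. Cdkn1a was not called without DMSO replicate 1 (0.29, adjusted p 0.101), without monuron replicate 2 or 3 (adjusted p 0.0593 and 0.0530), without both replicate 3 arrays of 72 h (0.0572) or with only the 72 h arrays in the fit (0.122). The 4 are 4 of 11, below the share of all genes called at that time.

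In the organs the battery genes that passed were mostly lower. In kidney 4 of 14 fell and none rose, where 10.2% of all genes were called, with a median of -0.41 beside -0.08 over all genes. Nqo1 fell by 2.93 (SE 0.27, adjusted p 9.22e-04), from 10.22 to 11.08 in controls to 7.29 to 8.43 with monuron. Gsta3 fell by 1.22 (adjusted p 0.0059), Cdkn1a fell by 1.47 (adjusted p 0.0091) and Cyp2s1, a P450 of epithelia, fell by 0.88 (adjusted p 0.0143). In liver 4 of 17 fell and 1 rose, where 3.12% of all genes were called, with a median of -0.18 beside -0.07. Gsta3 fell by 3.14 (SE 0.27, adjusted p 0.0016), from 9.81 to 10.97 in controls to 6.98 to 7.61 with monuron. Htatip2 fell by 0.92 (adjusted p 0.0087), Slc7a5 fell by 1.57 (adjusted p 0.0396) and Nqo1 fell by 1.59 (adjusted p 0.0466). Socs2, a suppressor of growth hormone signalling, rose by 2.47 (SE 0.44, adjusted p 0.0285). Slc7a5 lay below the median on all 4 monuron livers, and with the limit it fell by 0.79 (adjusted p 0.15). Over 15 other settings 3 to 6 genes of the list fell in kidney, and in liver 2 to 4 fell and 0 or 1 rose. In liver Gsta3 and Htatip2 were called under all 15, whereas Nqo1 was not called under 13, Slc7a5 under 9 and Socs2 under 8. Many of these genes answer to NRF2 and other factors as well. The kidney arrays also differed in their proximal tubule markers, with a mean of 9.36 to 9.43 above the median with monuron and 9.08 to 9.23 in controls and with Cubn and Lrp2 called higher of 11. Among other cells' markers Vwf (endothelial) and Ptprc (leukocyte) were called higher and Krt8 (epithelial) lower, and the part of these in the kidney falls was not tested.

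**Figure D4:**
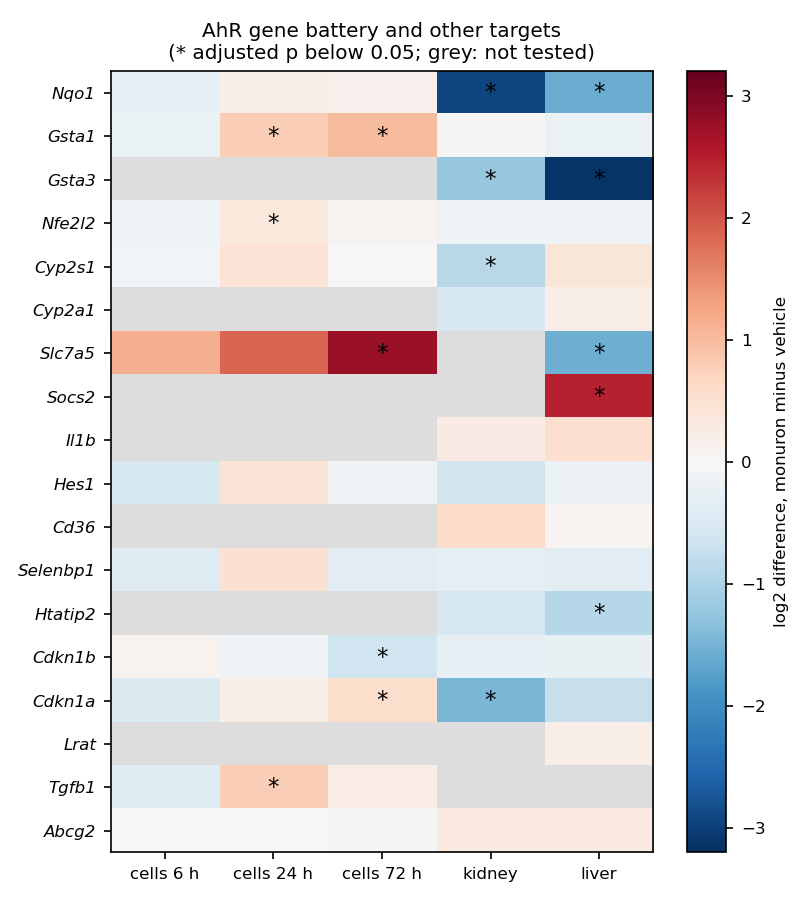
Log2 difference, monuron minus vehicle (colour, red higher and blue lower), for the 18 listed AhR battery and other target genes tested in at least 1 comparison (rows) in the 5 treatment comparisons (columns); stars mark adjusted p below 0.05 and grey cells were not tested. The 24 h column has 3 stars, all red, and the kidney column 4, all blue, led by Nqo1 at -2.93.

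Among the chaperones that hold AhR before it meets a ligand, treatment calls came at 72 h and in kidney, and not at 6 or 24 h or in liver. Of 5 listed, 3 were on the array and tested: Hsp90ab1, Ptges3 and Cdc37. At 6 and 24 h limma called 0 (0 at an unadjusted p below 0.05), and Ptges3 was 0.32 higher at 72 h (adjusted p 8.27e-05), when 61.6% of all genes were called. In kidney Ptges3 fell by 0.27 (SE 0.05, adjusted p 0.0105) and Hsp90ab1 fell by 0.30 (SE 0.06, adjusted p 0.0142), 2 of 3 (1 or 2 over 15 other settings) where 10.2% of all genes were called, with a list median of -0.27 beside -0.08. Ptges3 was not called with the replicate number as a block (adjusted p 0.0622), and Hsp90ab1 was not called as the mean of its probe sets (-0.06, adjusted p 0.788). In liver limma called 0 (2 at an unadjusted p below 0.05), with differences of -0.17 and -0.40 for the same 2 genes. In DMSO cells from 6 to 24 h all 3 were lower, where 53.1% of all genes were called, with a median of -0.40 beside -0.02.

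Relatives of AhR and Arnt share the bHLH-PAS fold (the Per and Ncoa genes carry PAS domains too) and include the clock and hypoxia factors. In the cells 9 of 18 were tested. At 6 h limma called 0 (3 at an unadjusted p below 0.05). At 24 h 3 rose: Per2 by 2.12 (SE 0.35, adjusted p 0.0017), Per3 by 1.28 (adjusted p 0.0026) and Hif1a by 0.35 (adjusted p 0.0499), with a list median of 0.27 beside 0.00. That is 3 of 9, where 13.6% of all genes were called. Over 27 other settings 2 to 5 of the list rose and 0 or 1 fell, and Hif1a was not called under 20 of them (adjusted p up to 0.197). Per2 read 5.39 to 5.63 in DMSO and 7.40 to 7.84 with monuron. At 72 h, where 61.6% of all genes were called, 7 rose and Arnt2, the second Arnt, fell by 1.73 (adjusted p 1.19e-04), with a median of 0.95 beside 0.01. As the mean of their probe sets Arnt2 fell by 0.85 at 72 h (adjusted p 3.14e-04), and at 24 h Per2 was 1.06 and Per3 0.64 higher (adjusted p 0.0086 and 0.0058). Clock (1.16) and Hif1a (0.95) were among the 7. In kidney and liver limma called 0 of 13 and 0 of 10, with 1 in each at an unadjusted p below 0.05 and medians of -0.13 and -0.07 beside -0.08 and -0.07.

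The other lists were quieter in the cells before 72 h. Of 12 coregulators tested, at 24 h Hdac3 alone fell by 0.27 (adjusted p 0.0443), a call lost under 14 of 27 other settings, where 13.6% of all genes were called. At 6 h limma called 0 (0 at an unadjusted p below 0.05), and so it did in kidney (4) and liver (2). Of 12 genes that supply electrons and haem to P450s, Por, the reductase that every microsomal P450 draws on, at 6 h fell by 0.52 (SE 0.12, adjusted p 0.0219), from 8.90 to 9.11 down to 8.25 to 8.61, and over 27 other settings 0 to 3 of that list fell at 6 h. At that time 6.31% of all genes were called. In liver Cyb5a, cytochrome b5, fell by 0.34 (SE 0.05, adjusted p 0.0136) and Alad, an early enzyme of haem synthesis, fell by 0.38 (adjusted p 0.0442), 2 of 13 (0 to 2 over 15 other settings), with a median of -0.32 beside -0.07. There 3.12% of all genes were called, and Cyb5a was not called under 3 of the 15 settings and Alad under 12. In kidney Hmox1, which breaks haem down, fell by 1.10 (adjusted p 0.0132), 1 of 13 (0 or 1 over those settings), where 10.2% of all genes were called. Tryptophan breakdown makes kynurenine, an AhR ligand made in the body, and its list was tested for 9 genes in kidney. The list spans the breakdown route, not only the steps that make kynurenine, and the ligand itself was not measured. There 4 rose and none fell, where 10.2% of all genes were called: Acmsd (0.81, SE 0.13, adjusted p 0.0066), Kynu (0.50, adjusted p 0.0412), Kyat1 (0.44, adjusted p 0.0450) and Afmid (0.43, adjusted p 0.0384), with a median of 0.42 beside -0.08. Over 15 other settings 1 to 4 rose, Acmsd under all 15, whereas Afmid was not called under 9, Kynu under 10 and Kyat1 under 12. In liver Acmsd alone rose of 10, by 2.69 (SE 0.48, adjusted p 0.0285), where 3.12% of all genes were called. It read 2.58 to 4.00 in controls, a range that reaches below the array median, and 4.76 to 6.78 with monuron. Acmsd was not called under 7 of 15 other settings (adjusted p up to 0.0950), and 0 to 2 of that list rose over them.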

How the data were processed

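RNA of 18 cell, 8 kidney and 8 liver samples was hybridised to 1 array each. The deposited values are log2 expression per probe set, obtained by the authors with GCRMA (background correction, normalization between arrays and probe summary) per the submitters' processing notes; its version is not given in the sources used here. Such processing leaves dim probe sets at a floor, which is why levels are set against the array median. Arrays have no read depth, and their number limits the precision.

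Of 31099 probe sets, 57 controls were left out of the tests; 20826 had 1 gene symbol in the platform annotation, 436 several and 9780 none. Each gene was represented by its probe set with the highest mean. A gene was tested if it exceeded the median of the array on a number of arrays equal to the smallest group or more: 9042 in cells, 9542 in kidney, 9361 in liver and 10114 jointly. Limma 3.58.1 in R 4.3.3 (lmFit, eBayes with trend, two-sided) was used, with Benjamini-Hochberg adjustment over all genes tested. The 18 cell arrays were fitted as 6 groups, the organs apart, and the joint fit gave the organ comparison; levels between organs were compared on median-centred values. SE is limma's, SD that of a group's arrays. P-values set a difference against limma's estimate of the spread between arrays, which in the cells is shared by all 18 arrays. The fit was also run on simulated data, with independent noise and changes planted only in genes above the median on every array. That run does not cover genes that cross the median, such as Cyp1a1, Ahr and Arnt.

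Named are the 7 genes, up to 4 genes with the smallest adjusted p per list and comparison, and the 3 genes with the highest Pearson r to a called member. Genes and lists were chosen with earlier results of these data known. The replicate numbers were checked as pairs by the correlation of deviations from group means. At 6 h the same-numbered pairs gave 0.491, 0.197 and 0.290, and at 72 h 0.205, 0.167 and 0.317. Pairs of unlike number reached 0.301 at 6 h and 0.275 at 72 h, and at each time 4 of 6 arrays were closest to their own number. The numbers were therefore taken as possible pairs at these times, and not at 24 h or in the organs. The values given are from the fits without the block, and fits with the replicate number as a block were run as an alternative for all comparisons.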

Additional observations from a re-analysis of the deposited data

Results flagged for a closer look

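In groups of 4 arrays, 1 array stood away from the other 3 in 6 of 36 groups examined. The rule used gives about 1 in 20 for independent values. The 36 groups reuse 9 probe sets on the same arrays, and many lie below the array median, so the count tests no excess. Ahr read 3.51 in kidney control replicate 1 (others 2.43 to 2.44), below the array median, and 3.97 in liver monuron replicate 2 (others 2.50 to 2.56). Cyp1a2 read 2.11 in kidney monuron replicate 1 (others 2.02) and 2.29 in kidney control replicate 3 (others 1.97 to 2.02), both below the array median, and 13.93 in liver monuron replicate 3 (others 14.51 to 14.61). Cyp1b1 read 3.70 in kidney control replicate 3 (others 2.75 to 2.80), also below the median.

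The treatment difference itself differed between times or organs in 5 tests. For Cyp1a1 it rose by 4.74 from 6 to 24 h (adjusted p 0.0015), moved by -4.25 from 24 to 72 h (adjusted p 9.16e-05), and was -4.55 in liver relative to kidney (adjusted p 0.0453). With values under the array median set to it these were 3.09, -2.55 and -4.21 (adjusted p 7.13e-04, 1.00e-04 and 0.0431). For Cyp1b1 it moved by 0.89 (adjusted p 0.0149) and for Tiparp by -0.49 (adjusted p 0.0086) from 24 to 72 h. With arrays centred on their medians the change of Tiparp was -0.39 and was not called (adjusted p 0.0544). All p-values are limma's over all genes tested.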

How the results depend on the processing

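Left-out single arrays gave between 1 and 3 called members at 6 h, 2 and 3 at 24 h, 0 and 2 at 72 h, 1 and 3 for DMSO cells from 6 to 24 h, 2 and 4 for DMSO cells from 24 to 72 h, 0 and 2 in liver, 0 and 2 for the organ comparison and 1 and 4 between control organs. With values below the array median set to it, 1 member was called at 6 h and 0 at 72 h. Without the brightness filter 2 were called at 72 h, 0 for the organ comparison and 4 between control organs. By limma the added call at 72 h was Cyp1a2 (0.032, adjusted p 0.0423). Those added between control organs were Ahr (1.64, adjusted p 0.0088) and Ahrr (0.29, adjusted p 1.27e-09). Cyp1a2 lay below the median on all 18 cell arrays and Ahrr on all 34 arrays, so neither of these calls is a reading of the gene. With only the cell arrays of the times compared, 0 were called at 72 h, where Cyp1a1 no longer passed the brightness filter and was not tested (nor was it at 6 h), and 4 for DMSO cells from 24 to 72 h. For the organ comparison 0 were called with every probe set, the mean of the probe sets, eBayes without trend or the replicate block. When both replicate 3 arrays of 72 h were dropped, a setting chosen after seeing the data, 0 were called at 72 h. The cause of the other changes was not tested.

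Of single members, Arnt in DMSO cells from 6 to 24 h became called with values below the median set to it (0.57, adjusted p 0.0249), and the change of Tiparp from 24 to 72 h was no longer called with centred arrays (-0.39, adjusted p 0.0544). From 24 to 72 h in DMSO cells Ahr and Arnt became called, both lower, without DMSO 72 h replicate 1 (adjusted p 0.0410 and 0.0244), and Ahr also without monuron 6 h replicate 1 (0.0434). Without liver control replicate 3 Tiparp became called in the organ comparison (1.08, adjusted p 0.0307) and between control organs (-0.83, adjusted p 8.84e-04).

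No called difference changed sign under the settings run. Differences that were not called did so for Arnt at 6 h (left-out arrays -0.14 to 0.81), Ahr at 24 h (-0.17 to 0.23), Tiparp at 72 h (-0.010 to 0.18, and -0.025 as the mean of its probe sets) and Cyp1a1 in kidney (-0.77 to 0.28). Tiparp in DMSO cells from 6 to 24 h was -0.043 with centred arrays and -0.044 as the mean of its probe sets, and in kidney 0.20 as that mean. With the replicate number as a block 3 members were called at 6 h and 1 at 72 h; the block changed no call of a member but Tiparp at 6 h and the organ comparison.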
